A study of Mus musculus with 20 samples.

Results

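Knockout MPP2 was compared with knockout MPP3 in 6 RNA-seq libraries of a series of 20, all from bone marrow of C57BL/6 mice aged 8 weeks. The 3 MPP2 and 3 MPP3 libraries were taken by their sorted population and genotype, and all 6 came from mice without Hopx, a homeodomain protein that lacks DNA-binding activity of its own. MPP2 and MPP3 are the type 2 and type 3 multipotent progenitors, sorted by flow cytometry; the antigens of the gates, the knockout allele and any pooling of mice were not given in the sources used here. KO denotes Hopx-knockout and WT Hopx-wildtype. The other 14 libraries comprised 3 of WT MPP2, 4 of WT MPP3, and 3 KO and 4 WT libraries of LT-HSC, the long-term haematopoietic stem cells.

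Multipotent progenitors lie between the stem cell and the lineage-restricted progenitors of the marrow. MPP2 is known for output towards megakaryocytes and erythroid cells, and MPP3 for output towards granulocytes and monocytes. MPP2 is commonly gated by CD150, the product of Slamf1, together with CD48, whereas MPP3 is gated as CD150-negative and CD48-positive, and both as negative for FLT3.

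Hopx had 0 reads in all 6 knockout MPP libraries, while the 7 wild-type MPP libraries held 11 to 70 reads. WT LT-HSC replicate 4 also had 0 Hopx reads, where the other WT LT-HSC libraries held 33 to 62, and it was kept under its label. The gene lies at chr5:77086988-77115121 on the minus strand of GRCm38. Reads in genes ranged from 13933069 to 15189909 in KO MPP2 and from 12565013 to 14658320 in KO MPP3, and genes with at least 1 read from 14931 to 18161 and from 17817 to 19358. Each group held 2 libraries with female and 1 with male transcripts; replicate 2 was the male one in both. Across genes, the Pearson correlation of log2 values was 0.831 to 0.892 within KO MPP2 and 0.912 to 0.921 within KO MPP3. KO MPP2 replicate 2 stood closer to KO MPP3 (0.884 to 0.904) than replicate 1 (0.847 to 0.852) or replicate 3 (0.811 to 0.814) did. Replicates were numbered in accession order, and nothing says that they came from separate mice, so p-values measure only the spread between libraries. The main fit takes that spread, and the SE of each fold change, from all 20 libraries and not from these 6 alone.

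Of the platelet and megakaryocyte genes tested, 18 of 31 rose in KO MPP2, while 8 of 22 early lymphoid, 3 of 20 monocyte and 2 of 20 primary granule genes fell. With limma on log2(normalized count + 1), 478 of 17160 genes tested passed an adjusted p of 0.05 (2.79% of all genes; called genes below). Of these, 115 rose in KO MPP2 (0.67%) and 363 fell (2.12%). The groups of 3 did not overlap for 477 of the called genes, Pls3 being the exception, while 20.6% of all genes tested showed no overlap. The median log2 fold change was 1.99 among the genes that rose and -3.95 among those that fell, against -0.15 over all genes tested. Protein-coding genes made up 104 of the 115 and 322 of the 363. The count was 197 with edgeR (73 higher, 124 lower), 885 with DESeq2 (293 higher, 592 lower) and 140 in a fit on the 6 libraries alone. It was 252, 1178 and 241 without KO MPP2 replicates 1, 2 and 3, and 134, 111 and 107 without KO MPP3 replicates 1, 2 and 3. Of 73 called genes that the naming rule chose, 45 did not pass in at least 1 of these 6 fits.

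The 14 largest increases among called genes with a mean of at least 100 normalized counts were Cavin2, Gp1bb, Pf4, Treml1, Pde10a, Ehd3, Slamf1, F2rl2, Gp1ba, Vwf, Gp5, Rab27b, Tuba8 and Gucy1a1. Many of their products belong to the platelet. Pf4, which encodes the alpha-granule chemokine platelet factor 4, stood at 55774, 46481 and 6536 normalized counts in KO MPP2 replicates 1, 2 and 3, against 132, 40.6 and 42.7 in KO MPP3. Replicate 3 was the lowest KO MPP2 library and still lay far above KO MPP3; the log2 fold change was 8.69 ± 1.19 (SE, n = 3 per group, limma adjusted p = 0.00106). Cavin2, a component of the caveolar coat that is abundant in platelets, measured 3976, 3089 and 797 normalized counts in KO MPP2, with 1 read in KO MPP3 replicate 1 and none in the other two libraries. Its log2 fold change was 10.72 ± 1.01 (adjusted p = 2.43e-05). With so few reads in KO MPP3 the size depends on the method: it ran from 7.05 to 12.89 over the alternatives. With voom weights Cavin2 did not pass (limma adjusted p = 0.0765). Treml1, a receptor of platelet alpha-granules, read 1049, 1164 and 404 in KO MPP2 and 2.1, 14.2 and 0 in KO MPP3 (log2 fold change 7.78 ± 1.05, adjusted p = 0.00105).

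The glycoprotein Ib-IX-V complex, the platelet receptor for von Willebrand factor, was higher in all 4 of its subunit genes. Gp1bb had 2732, 2418 and 527 normalized counts in KO MPP2 and no read in KO MPP3, at least 1956-fold higher by a floor of 3 reads over the group; Gp1bb overlaps Sept5 on the same strand. Gp1ba stood at 752, 404 and 242 against 0, 18.9 and 18.2, and its log2 fold change was 5.86 ± 1.34 (adjusted p = 0.0261). Gp5 stood at 4697, 2416 and 1560.2 against 154, 38.7 and 97.2 (4.95 ± 1.17, adjusted p = 0.0298). KO MPP2 and KO MPP3 did not overlap for any of these genes. Gp9 read 1774, 1154 and 639 against 192, 198 and 96.3 (2.82 ± 0.37, adjusted p = 0.000977). The ligand gene Vwf, also expressed by endothelium, had 3664, 1327 and 469.6 normalized counts against 27.3, 41.5 and 10.9 (5.76 ± 1.13, adjusted p = 0.0124).

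Receptors for thrombin and for ADP rose too. F2rl2 encodes PAR3, a thrombin receptor of mouse platelets, and stood at 3406, 2357 and 1327 normalized counts in KO MPP2 against 54.6, 50 and 12.7 in KO MPP3 (log2 fold change 6.02 ± 0.85, adjusted p = 0.00133). F2r, which encodes PAR1, had a log2 fold change of 4.16 ± 0.57 (adjusted p = 0.00107), and P2ry1, an ADP receptor, one of 3.73 ± 0.61 (adjusted p = 0.00442). Among the remaining members of the 14, Rab27b, a GTPase of granule secretion, Tuba8, an alpha-tubulin, and Gucy1a1, a subunit of the nitric oxide receptor, had log2 fold changes of 4.56, 4.26 and 4.23. Pde10a, a cyclic nucleotide phosphodiesterase, stood at 328, 381 and 325 normalized counts in KO MPP2 with 1 read in each KO MPP3 library. Ehd3, an endocytic recycling protein, measured 659, 945 and 53.1 against 1.05, 0 and 2.73, with KO MPP2 replicate 3 far below the other two. With voom weights 2 of these 14 genes passed, and without KO MPP2 replicate 1 or KO MPP3 replicate 1, 2 or 3 the number was 8, 9, 8 and 8; Treml1 passed under all 21 alternatives run, not counting those that leave out a WT MPP library.

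**Figure D1:**
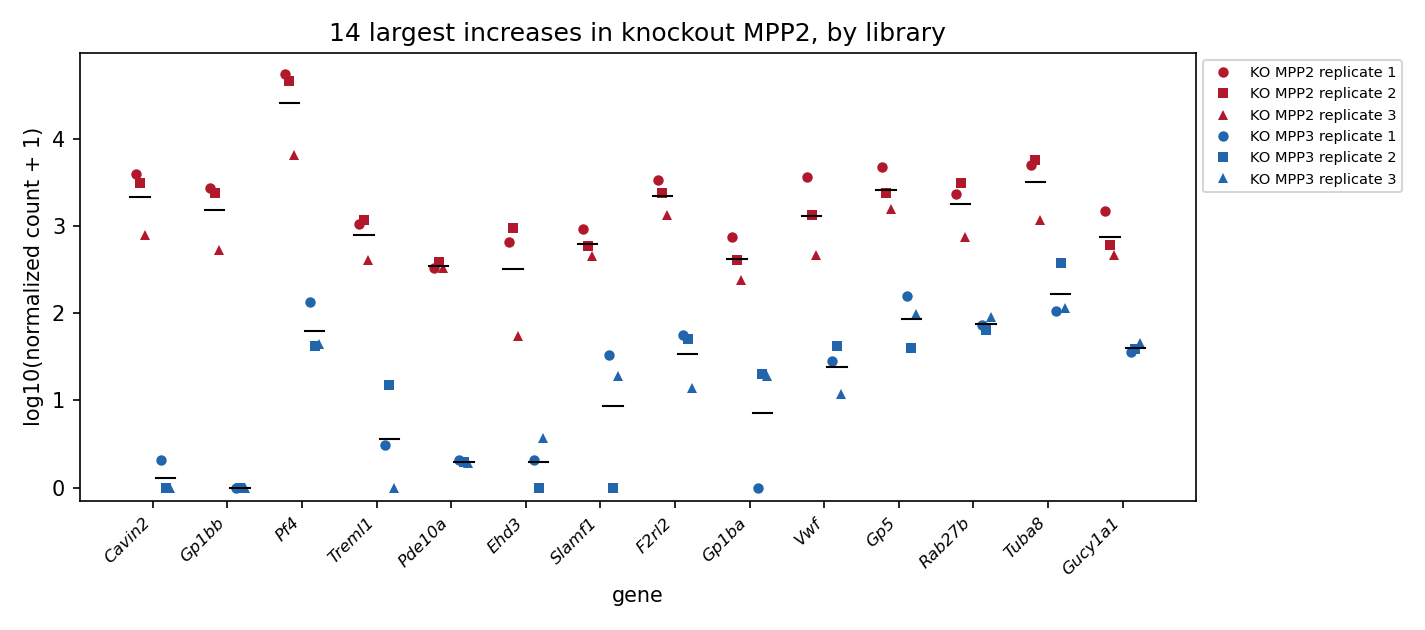
The 14 genes with the largest increases in KO MPP2 (x axis) and log10 of the normalized count plus 1 (y axis); each symbol is 1 library, with its shape giving the replicate number, and the black lines are group means on that scale. Every KO MPP2 library lies above every KO MPP3 library for these genes, as the rule that chose them requires, and KO MPP2 replicate 3 is often the lowest of its group, as for Pf4 at 6536.

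Of 31 tested members of a list of megakaryocyte and platelet genes, 18 rose and none fell, and the list median was 2.82 on the log2 scale (3.02 with genes at 0 set to their bound). The rising members included Itga2b and Itgb3, the 2 chains of the platelet fibrinogen receptor. Itga2b had 9476, 7074 and 4055 normalized counts in KO MPP2 and 383, 703 and 641 in KO MPP3 (log2 fold change 3.54 ± 0.80, adjusted p = 0.0247). Mmrn1, which encodes the platelet protein multimerin, showed another order within KO MPP2: 1763, 1853 and 3356 against 157, 163 and 104, with replicate 3 the highest (3.99 ± 0.34, adjusted p = 1.74e-05). Ppbp, another platelet chemokine, was at 617, 671 and 0 in KO MPP2 and overlapped KO MPP3 (51.4, 55.7 and 4.54). Summed over the list, KO MPP2 held 57084 to 152997 normalized counts and KO MPP3 20063 to 21443. In bulk libraries, more cells of a type cannot be told apart from more RNA per cell. Of the 18 genes, 9 passed without KO MPP2 replicate 1, 10, 11 and 10 without KO MPP3 replicates 1, 2 and 3, 7 with voom weights and 12 in a fit on the 6 libraries alone.

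Of 29 tested erythroid genes, limma called 1 as higher, Icam4, an erythroid adhesion molecule, and none as lower, with a median of 0.31. Icam4 stood at 1402, 1562 and 828 normalized counts against 622, 397 and 223 (log2 fold change 1.68 ± 0.40, adjusted p = 0.0305), and did not pass in 9 of 21 alternatives, among them edgeR, the fits on 6 or 9 knockout libraries, and those without KO MPP2 replicate 1 or 2 or KO MPP3 replicate 2 or 3. Mfsd2b, which encodes a sphingosine-1-phosphate transporter of red cells and platelets, was not called by limma (log2 fold change 3.19) but passed in 7 alternatives, among them DESeq2 (adjusted p = 0.00564) and the fits on 6 or 9 libraries. Gata1, the master regulator shared by the erythroid and megakaryocyte lineages, measured 3215, 4259 and 3821 in KO MPP2 and 1035, 1054 and 528 in KO MPP3, groups that did not overlap, yet the test gave 2.17 ± 1.71 (adjusted p = 0.566). That fit shares 1 spread over all 20 libraries, and Gata1 ran from 0 to 1256 within WT MPP3; in fits on the 6 libraries or the 9 knockout libraries Gata1 passed. Klf1, an erythroid transcription factor, overlapped between groups at 1503, 2492 and 2749 against 2059, 1497 and 515.

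Among 21 transcription factors of the megakaryocyte and erythroid lineages, the members that rose included Gata2, Gfi1b and Fli1, none fell, and the median was 0.15. Gata2, a zinc-finger factor of stem cells, megakaryocytes and mast cells, read 5704, 4272 and 7363 normalized counts in KO MPP2 against 1694, 1100.0 and 2019 in KO MPP3 (log2 fold change 1.86 ± 0.32, adjusted p = 0.00668). Gfi1b, a repressor required for both lineages, and Fli1, an ETS factor of megakaryocytes, had log2 fold changes of 1.75 ± 0.40 and 1.37 ± 0.27 (adjusted p = 0.0253 and 0.0125). None of these 3 genes passed in a fit on the 6 libraries alone, where the limma adjusted p of Gata2, Fli1 and Gfi1b was 0.0518, 0.0766 and 0.135. Gfi1b and Fli1 did not pass without KO MPP2 replicate 1 or KO MPP3 replicate 1, nor did Gfi1b without KO MPP2 replicate 3 or KO MPP3 replicate 3, or Fli1 without KO MPP3 replicate 2; with edgeR Gfi1b did not pass. Among 16 tested Hox cluster genes and cofactors, Hoxa7, of the Hoxa cluster, fell, at 193, 267 and 65.8 against 707, 719 and 707 (-2.23 ± 0.46, adjusted p = 0.016).

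The opposite side of the comparison was led by lymphoid and myeloid genes. The 14 largest decreases were Dntt, C230085N15Rik, Tspan2, Ccl3, Mcpt8, Bpifc, E430014B02Rik, Satb1, Cd244a, Trem3, Mn1, Sstr2, Arl11 and Mgst2. Dntt encodes terminal deoxynucleotidyl transferase, which adds untemplated bases at V(D)J joints, and measured 0, 79 and 0 normalized counts in KO MPP2 against 2484, 5038 and 4441 in KO MPP3. Only KO MPP2 replicate 2 held reads, and the log2 fold change was -9.79 ± 2.42 (adjusted p = 0.0372). Satb1, a chromatin organizer of lymphoid progenitors at chr17:51736187-51833290, stood at 0, 162 and 4.91 against 1891, 2147 and 2089 (-7.69 ± 1.58, adjusted p = 0.0155). C230085N15Rik and E430014B02Rik lie inside Satb1 on its strand, so their reads cannot be separated from Satb1 transcripts with certainty. Mn1, a transcriptional coregulator, was at 0, 10.7 and 0 against 413, 415 and 335 (-7.42 ± 0.90, adjusted p = 0.000387).

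Tspan2, a tetraspanin, and Trem3, a receptor of myeloid cells, had no read in the 3 KO MPP2 libraries and stood at 384, 431 and 524, and at 72.4, 347 and 232, normalized counts in KO MPP3. By the floor of 3 reads over the group they were at least 474-fold and at least 231-fold lower in KO MPP2. Ccl3, an inflammatory chemokine, measured 0, 48 and 0 against 1549.9, 1228 and 1812 (log2 fold change -8.69 ± 1.31, adjusted p = 0.00238). Mcpt8, a protease of basophils, measured 0, 5.33 and 0 against 388, 1151 and 343 (-8.18 ± 1.24, adjusted p = 0.00243). Cd244a, a SLAM-family receptor, stood at 1.91, 32.9 and 0 against 833, 897 and 863. Replicate 2 was again the highest of the KO MPP2 libraries for each of these 3 genes. Bpifc, Sstr2 (a somatostatin receptor), Arl11 (a small GTPase) and Mgst2 (a glutathione transferase) had log2 fold changes of -7.96, -7.30, -7.11 and -7.04. With edgeR 5 of these 14 genes passed, 8 without KO MPP2 replicate 1 or 3, and 8, 6 and 7 without KO MPP3 replicates 1, 2 and 3; C230085N15Rik, Tspan2 and Mn1 passed under all 21.

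**Figure D2:**
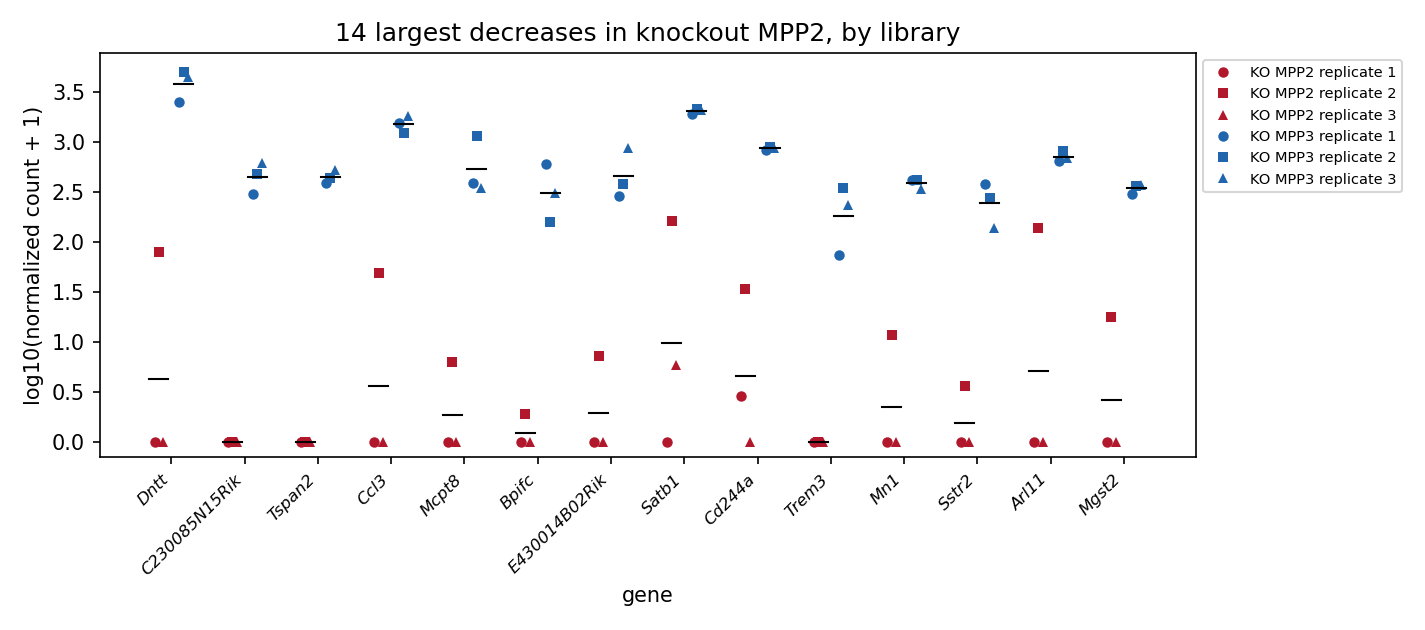
The 14 genes with the largest decreases in KO MPP2 (x axis) and log10 of the normalized count plus 1 (y axis); each symbol is 1 library, with its shape giving the replicate number, and the black lines are group means on that scale. Most KO MPP2 values lie at 0, and where 1 library is above 0 it is mostly replicate 2 (squares), as for Arl11 at 138.

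The KO MPP2 libraries were uneven on this side. Over the 363 genes that fell, the highest KO MPP2 library was replicate 2 for 239 and replicate 3 for 33. The other 91 were counted under replicate 1, but they include 39 genes with no read in any KO MPP2 library. Of the 363, 66 had reads in replicate 2 only. Over the 115 genes that rose, the lowest KO MPP2 library was replicate 3 for 58, the library with the fewest genes with a read (14931). Over the genes called in this same contrast, 363 of which fell, the median SD of log2 values was 0.69 in KO MPP2 and 0.32 in KO MPP3. For these genes it was 0.82 in WT MPP2 and 0.50 in WT MPP3, so MPP2 spread wider in both genotypes. Granule genes also showed the split between KO MPP2 libraries. Mpo, the myeloperoxidase of primary granules, measured 1136, 15747 and 91.4 normalized counts in KO MPP2 against 84728, 103540.0 and 98936 in KO MPP3. Mpo did not pass (log2 fold change -6.33 ± 2.20, adjusted p = 0.135), nor did Elane, which encodes neutrophil elastase, at 0, 3961 and 0 against 7804, 16051 and 6702 (-9.22 ± 3.47, adjusted p = 0.171). Without KO MPP2 replicate 2 both passed, and 999 genes fell in place of 363. The number that fell was 202 and 157 without KO MPP2 replicates 1 and 3, and 90, 71 and 73 without KO MPP3 replicates 1, 2 and 3. With the male library of each group, replicate 2, left out, 478 genes fell and 68 rose. These libraries are numbered 119 and 118 and the female ones belong to other runs of numbers. Sex and run therefore cannot be told apart among the knockout MPP libraries.

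Promoters of the 4 largest increases and of the 4 largest decreases with an entry are shown because these genes carry the contrast. Each is the 250 bases before the first transcription start, 5′ to 3′ on the gene's strand, from RefSeq on GRCm38.p6; C230085N15Rik had no entry and Tspan2 has 2 starts. Capitals mark matches, on either strand, to the GATA core motif AGATAA, the PU.1-type ETS motif GAGGAAGT or the C/EBP-type motif TTGCNNAA.
Cavin2 promoter, chr1:51288876-51289125, plus strand: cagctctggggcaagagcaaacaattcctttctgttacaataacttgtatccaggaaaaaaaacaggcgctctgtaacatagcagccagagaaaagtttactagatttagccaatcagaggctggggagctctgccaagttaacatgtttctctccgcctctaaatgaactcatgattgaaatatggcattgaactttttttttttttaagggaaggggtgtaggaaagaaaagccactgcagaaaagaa
Gp1bb promoter, chr16:18622404-18622653, minus strand: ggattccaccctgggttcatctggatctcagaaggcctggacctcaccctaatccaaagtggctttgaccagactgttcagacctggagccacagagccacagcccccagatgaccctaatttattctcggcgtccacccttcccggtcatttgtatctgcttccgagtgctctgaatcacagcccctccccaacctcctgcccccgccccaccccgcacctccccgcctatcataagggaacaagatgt
Pf4 promoter, chr5:90772185-90772434, plus strand: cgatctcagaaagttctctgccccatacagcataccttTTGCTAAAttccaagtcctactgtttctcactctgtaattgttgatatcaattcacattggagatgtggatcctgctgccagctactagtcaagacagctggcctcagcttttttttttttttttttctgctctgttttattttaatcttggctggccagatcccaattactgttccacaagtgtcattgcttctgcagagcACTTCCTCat
Treml1 promoter, chr17:48359666-48359915, plus strand: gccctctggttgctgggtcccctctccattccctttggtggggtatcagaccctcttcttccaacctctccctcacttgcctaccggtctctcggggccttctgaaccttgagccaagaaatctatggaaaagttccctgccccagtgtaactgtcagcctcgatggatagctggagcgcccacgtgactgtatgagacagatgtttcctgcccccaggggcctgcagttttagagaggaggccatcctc
Dntt promoter, chr19:41029025-41029274, plus strand: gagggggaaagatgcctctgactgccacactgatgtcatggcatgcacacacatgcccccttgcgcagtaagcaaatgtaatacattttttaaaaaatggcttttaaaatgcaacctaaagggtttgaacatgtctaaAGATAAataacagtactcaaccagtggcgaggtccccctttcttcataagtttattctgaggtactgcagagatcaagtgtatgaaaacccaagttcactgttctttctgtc
Tspan2 promoter, chr3:102734520-102734769, plus strand: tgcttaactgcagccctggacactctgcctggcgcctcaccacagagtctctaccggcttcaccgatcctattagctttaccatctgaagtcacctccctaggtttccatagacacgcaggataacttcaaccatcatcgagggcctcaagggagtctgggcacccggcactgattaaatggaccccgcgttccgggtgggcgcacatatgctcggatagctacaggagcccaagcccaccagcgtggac
Ccl3 promoter, chr11:83649379-83649628, minus strand: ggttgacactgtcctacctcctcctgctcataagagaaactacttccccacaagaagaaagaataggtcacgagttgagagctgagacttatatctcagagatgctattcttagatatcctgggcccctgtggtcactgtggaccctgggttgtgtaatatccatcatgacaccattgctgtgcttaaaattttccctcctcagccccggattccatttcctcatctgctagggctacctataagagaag
Mcpt8 promoter, chr14:56085198-56085447, minus strand: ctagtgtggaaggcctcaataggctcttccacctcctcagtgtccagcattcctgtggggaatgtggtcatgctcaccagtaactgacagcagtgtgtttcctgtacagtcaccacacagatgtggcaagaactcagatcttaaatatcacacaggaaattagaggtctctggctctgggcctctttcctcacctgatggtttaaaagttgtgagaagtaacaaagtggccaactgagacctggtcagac

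Pf4 held 1 ETS-type and 1 C/EBP-type match, Dntt held 1 GATA match, and the other 6 windows held none of these letters. Over 27025 promoters of this length, 10.3% held the GATA core, 2.44% the ETS-type and 9.55% the C/EBP-type motif. Among promoters of genes that rose, 8 of 86 (9.30%) held the GATA core, and among those of genes that fell, 12 of 252 (4.76%) held the ETS-type motif. The ETS-type and C/EBP-type motifs were held by 2.33% and 6.98% of promoters of genes that rose, and the GATA core and the C/EBP-type motif by 7.94% and 7.14% of those of genes that fell.

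Of 22 tested early lymphoid genes, 8 fell and none rose, and the median was -2.72 (-3.04 with genes at 0 set to their bound). The 8 were Dntt, Flt3, Ccr7, Notch1, Satb1, Lsp1, Cd27 and Mn1, and some of these also mark other progenitors. Notch1, the receptor that directs T-lineage entry, read 45.7, 46.2 and 74.7 normalized counts in KO MPP2 against 378, 359.8 and 399.8 in KO MPP3 (log2 fold change -2.79 ± 0.65, adjusted p = 0.028). Cd27, a TNF-receptor family member, read 709, 802 and 438 against 2642, 2496 and 2794 (-2.07 ± 0.39, adjusted p = 0.011). Il7r, the interleukin-7 receptor chain, was near 0 in KO MPP2 and at 8.4, 13.2 and 50.9 in KO MPP3, and did not pass (adjusted p = 0.203). Of the 8, 4 passed without KO MPP2 replicate 1 or 3, 3, 2 and 1 without KO MPP3 replicates 1, 2 and 3, and 4 with edgeR. With limma none of 9 tested B cell genes and none of 7 tested T and NK cell genes passed, with medians of -0.44 and -1.71. In these lists 0 and 3 genes had an unadjusted p under 0.05, against 2999 of all 17160 genes tested. With edgeR none passed in either list, and with DESeq2 Thy1, a surface antigen of T cells and some progenitors, was the 1 gene that did (adjusted p = 0.0409); the B cell median was -1.49 with DESeq2.

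Of 21 tested transcription factors of the myeloid and lymphoid lineages, Spi1, Gfi1, Satb1 and Notch1 fell and none rose, with a median of -1.36. Spi1 encodes PU.1, a factor of the myeloid and B lineages, and stood at 663, 797 and 770.3 normalized counts in KO MPP2 against 3196, 3016 and 2766 in KO MPP3. Its 3 libraries per group were close together, and the decrease (-2.01 ± 0.35, adjusted p = 0.00697) passed under all 21 alternatives. Gfi1, a repressor of granulocyte development, read 0, 14.2 and 1.96 against 284, 396 and 466 (-6.72 ± 1.69, adjusted p = 0.0394). Of the 4 genes, 1 passed with edgeR, without KO MPP2 replicate 1 or without any 1 of the KO MPP3 libraries, and 2 without KO MPP2 replicate 3. Irf8, a factor of monocytes and dendritic cells, read 162, 357 and 13.8 against 2053, 1969 and 2104 and did not pass (-4.42 ± 1.27, limma adjusted p = 0.0688), but passed with DESeq2, voom weights or a pseudocount of 16 and without KO MPP2 replicate 2. Cebpa, a factor of granulocyte commitment, was at 30.5, 19.5 and 110.0 against 273, 119 and 229.9 (adjusted p = 0.287).

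Of the primary granule and monocyte lists, 10% and 15% of the tested genes fell, against 2.12% of all genes tested. All KO MPP2 libraries lay below all KO MPP3 libraries for 15 of the 20 granule and 11 of the 20 monocyte genes. The reverse held for none of them, and over all genes tested the share below was 13.2%. Among 20 tested primary granule genes, Prtn3 and Prss57, both serine proteases of granules, fell, none rose, and the median was -3.45 (-2.03 with DESeq2 or edgeR). Prtn3 measured 875, 1917 and 651 normalized counts against 8046, 10977 and 11617 (log2 fold change -3.29 ± 0.72, adjusted p = 0.0211). Neither gene passed without KO MPP2 replicate 1 or 3 or without any 1 of the KO MPP3 libraries. Of 20 monocyte and macrophage genes, Csf1r, the receptor for macrophage colony-stimulating factor, the adaptor gene Tyrobp and the protease gene Ctss fell (median -2.45). Ctss stood at 1.91, 76.4 and 7.86 against 479, 1016 and 1008 (-5.97 ± 1.08, adjusted p = 0.00857), and none of the 3 passed in a fit on the 6 libraries alone; 1 passed with edgeR and without any 1 knockout MPP library other than KO MPP2 replicate 2. Of 17 mature neutrophil genes, Cxcr2, Itgam and Csf3r fell (median -0.63), and of 13 dendritic cell genes Flt3 and Bst2 fell (median -1.38). The neutrophil median was -2.40 with DESeq2, and none of the 3 neutrophil genes passed in the fits on 6 or 9 libraries or without KO MPP3 replicate 2 or 3, and 1 did without KO MPP2 replicate 1 or 3 or KO MPP3 replicate 1. Neither dendritic cell gene passed without KO MPP2 replicate 3 or without any 1 of the KO MPP3 libraries.

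**Figure D3:**
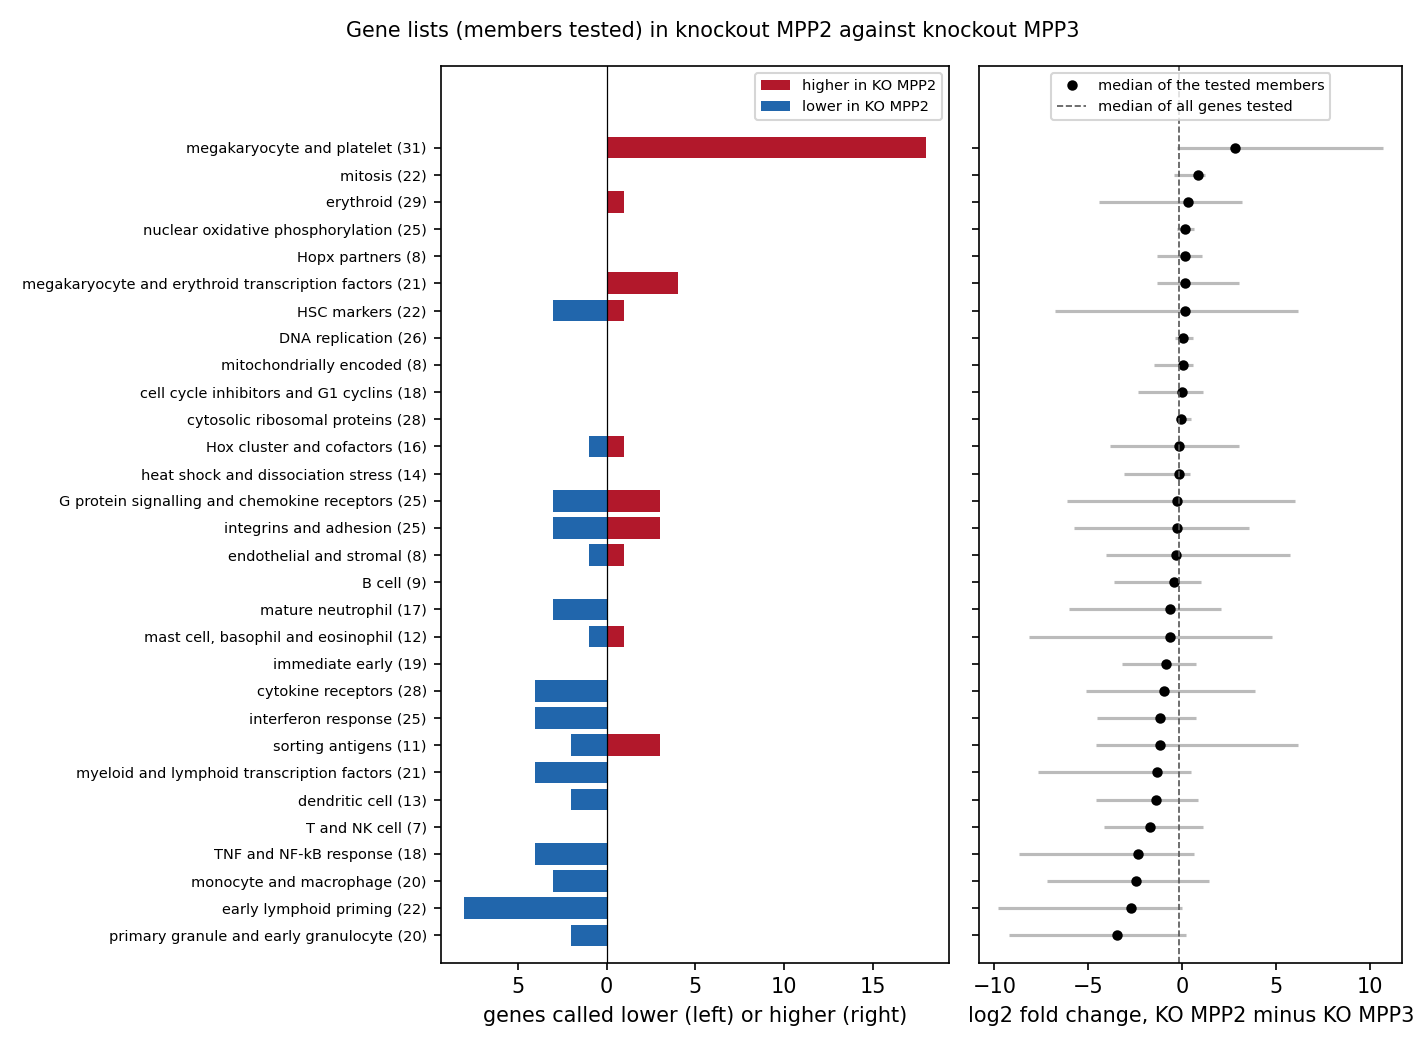
Gene lists ordered by median, with the number of members tested in brackets. Left, members called lower (blue) or higher (red) in KO MPP2; right, the median log2 fold change (point) and range (grey line), with all genes tested as a dashed line at -0.15. The megakaryocyte and platelet list, 18 of 31 higher, is at the top, and primary granule genes, with a median of -3.45, are at the bottom.

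Surface antigens used to sort progenitors differed in both directions, and any that set the gates is no finding between the groups. Slamf1 stood at 933, 589.7 and 446 normalized counts in KO MPP2 and at 32.5, 0 and 18.2 in KO MPP3 (log2 fold change 6.18 ± 1.09, adjusted p = 0.00705). Flt3, a cytokine receptor of lymphoid-primed progenitors, was at 268, 410.3 and 226 against 7392, 7354 and 6625 (-4.60 ± 0.95, adjusted p = 0.016). Flt3 RNA was thus plentiful in KO MPP3, although MPP3 is commonly gated as negative for FLT3 protein. The gates used here were not given, and whether these libraries held FLT3-positive cells was not tested. Cd34, a sialomucin, was at 2447, 2870.2 and 1228 against 16648, 15656 and 17908 (-3.03 ± 0.61, adjusted p = 0.0143). Flt3 and Cd34 were not called without KO MPP2 replicate 3 or without any 1 of the KO MPP3 libraries. Cd9, a tetraspanin, was higher at 7741, 8559 and 3235 against 721, 1008 and 864 (2.80 ± 0.41, adjusted p = 0.00167). Kit, the stem cell factor receptor, overlapped at 1656, 2222 and 3135 against 2208, 2464 and 2078 (0.01 ± 0.26, adjusted p = 0.999). Ly6a, which encodes SCA-1, was at 107, 172 and 121 against 1050.4, 1123 and 1191, groups that did not overlap, and did not pass (-3.09 ± 0.92, adjusted p = 0.08); it passed in the fits on 6 or 9 knockout libraries. Cd48 read 1643, 2750.3 and 3750.1 against 4928, 6899 and 5851 (adjusted p = 0.638). In all, 3 of these 11 antigens rose (Slamf1, Itga2b and Cd9) and 2 fell (median -1.18).

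Of 22 stem cell markers, Slamf1 rose while Procr, Fgd5 and Ltb fell, and the median was 0.13. None of the 4 passed in the fit on the 6 libraries, 1 did without KO MPP2 replicate 1 or KO MPP3 replicate 1, and 2 did without KO MPP2 replicate 3 or KO MPP3 replicate 2 or 3 or with voom weights. Procr, the endothelial protein C receptor, measured 0, 9.77 and 0 normalized counts against 285, 263 and 176 (log2 fold change -6.75 ± 1.41, adjusted p = 0.0165). Of 28 cytokine receptors, Flt3, Csf1r, Csf3r and Tnfrsf1a fell and none rose (median -0.95); none of the 4 passed without any 1 of the KO MPP3 libraries, and 1 did in the fits on 6 or 9 libraries or without KO MPP2 replicate 3. Csf3r, the granulocyte colony-stimulating factor receptor, was at 1.91, 159 and 132 against 1366, 1268 and 1451 (-5.11 ± 1.07, adjusted p = 0.0165). Of 25 adhesion genes, Itga2b, Itgb3 and Cd9 rose and Itgam, Selplg and Pecam1 fell (median -0.29); 2 of the 6 passed without KO MPP2 replicate 1 or any 1 of the KO MPP3 libraries. Selplg, the P-selectin ligand, read 1640.2, 2347 and 2106 against 4624, 5533 and 5071 (-1.33 ± 0.23, adjusted p = 0.00618). Of 25 genes of G protein signalling, F2r, F2rl2 and P2ry1 rose and Rgs2, Cxcr2 and Ccr7 fell (median -0.28). Rgs2, a regulator of G protein signalling, read 815, 939 and 359.6 against 3391, 3599 and 3753 (-2.46 ± 0.33, adjusted p = 0.00104). Among 12 mast cell, basophil and eosinophil genes Gata2 rose and Mcpt8 fell, and among 8 endothelial and stromal genes Vwf rose and Pecam1 fell, of which neither passed without KO MPP2 replicate 1 or KO MPP3 replicate 3.

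Interferon-response genes were lower in 4 of 25 tested members, with none higher and a median of -1.16. The called members were Ifitm1, Irf7, Stat2 and Bst2, of which 1 passed with edgeR, with no filter, in the fits on 6 or 9 knockout libraries and without KO MPP2 replicate 3 or KO MPP3 replicate 1 or 3; 2 passed without KO MPP2 replicate 1 or KO MPP3 replicate 2. Ifitm1, an interferon-induced transmembrane protein, measured 545, 997 and 1281 normalized counts in KO MPP2 against 4028, 4557 and 5875 in KO MPP3 (log2 fold change -2.42 ± 0.38, adjusted p = 0.00286) and passed under all 21 alternatives. Of 18 genes of the TNF and NF-kB response, Nfkbiz, Ccl3, Ccl4 and Ltb fell (median -2.37); 2 passed without KO MPP2 replicate 1, without KO MPP3 replicate 1 or 2 or with voom weights, and 1 in the fit on 6 libraries. Nfkbiz, a nuclear inhibitor of NF-kB, read 49.5, 47.1 and 20.6 against 761, 239 and 596 (-3.67 ± 0.53, adjusted p = 0.00145). Ccl4, a chemokine gene beside Ccl3, read 101, 81.7 and 128 against 1736, 2071 and 1370.1 (-4.05 ± 0.89, adjusted p = 0.0212).

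With limma no gene of the cell cycle lists passed. Of 22 mitosis genes, 21 had a higher mean in KO MPP2 and 12 did not overlap, with a median of 0.85, while 7.44% of all genes tested had all KO MPP2 libraries above all KO MPP3 libraries. Mki67, a marker of cycling cells, read 2818, 3790.2 and 3724 normalized counts in KO MPP2 against 2063, 1364 and 1560.0 in KO MPP3 (log2 fold change 1.06 ± 0.30, adjusted p = 0.0636). Top2a, the mitotic topoisomerase, read 6952, 7995 and 10162 against 4147, 3514 and 4549 (1.03 ± 0.33, adjusted p = 0.103). DESeq2 called Mki67 and Top2a, and edgeR none of the 22. An unadjusted limma p under 0.05 was found for 7 of the 22, against 2999 of all 17160 genes tested. With limma none of 26 DNA replication genes (median 0.05), 18 cell cycle inhibitors and G1 cyclins (median 0.00), 25 nuclear oxidative phosphorylation genes (0.16), 28 cytosolic ribosomal protein genes (-0.07), 8 mitochondrially encoded genes (0.05), 19 immediate early genes (-0.86), 14 heat shock genes (-0.19) or 8 Hopx partner genes (0.16) passed. The numbers with an unadjusted p under 0.05 were 3, 5, 5, 2, 0, 3, 0 and 1 in that order, against 2999 of all 17160 genes tested. With edgeR none passed in these 8 lists, and with DESeq2 Pcna, Cdkn1a, Cdkn2d and Cox5b were the genes that did. Cdkn1a, a cyclin-dependent kinase inhibitor, stood at 116, 151 and 224 against 1009.5, 478 and 1128 and did not pass with limma (-2.36 ± 0.64, adjusted p = 0.0562); it passed in 5 of 21 alternatives, among them DESeq2 (adjusted p = 0.00389) and the fit on 9 knockout libraries.

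The same contrast in wild-type mice compares the means of 7 other libraries. It comes from the same fit, so both contrasts share the spread of each gene and their calls are not independent. It called 74 genes (0.431%), 44 higher (0.256%) and 30 lower (0.175%) in WT MPP2. Of these, 58 were called in the same direction in the knockout, which is 12.1% of the knockout calls and 78.4% of the wild-type calls. Of the 115 genes that rose in KO MPP2, 113 had the same sign in the wild type, and of the 363 that fell, 336 did; over all genes tested, 64.8% had the same sign. WT MPP2 replicate 3 stood apart from its group: it held 176989 normalized counts of Ighm, the immunoglobulin mu chain, where the others held 145 and 235, and 7258 of Dntt where the others held 0 and 11. Without it 417 genes were called in the wild type, 154 of them also in the knockout (32.2% of the knockout calls and 36.9% of the wild-type calls). The number called in the wild type was 9 without WT MPP2 replicate 1, 25 without WT MPP2 replicate 2, and 48 and 40 without WT MPP3 replicates 1 and 4. Pf4 measured 31814, 21478 and 1374 in the WT MPP2 libraries against 101, 67.8, 174 and 54.1 for WT MPP3, and its log2 fold change of 6.76 (adjusted p = 0.00894) differed from that in the knockout by 1.93 ± 1.62 (SE).

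**Figure D4:**
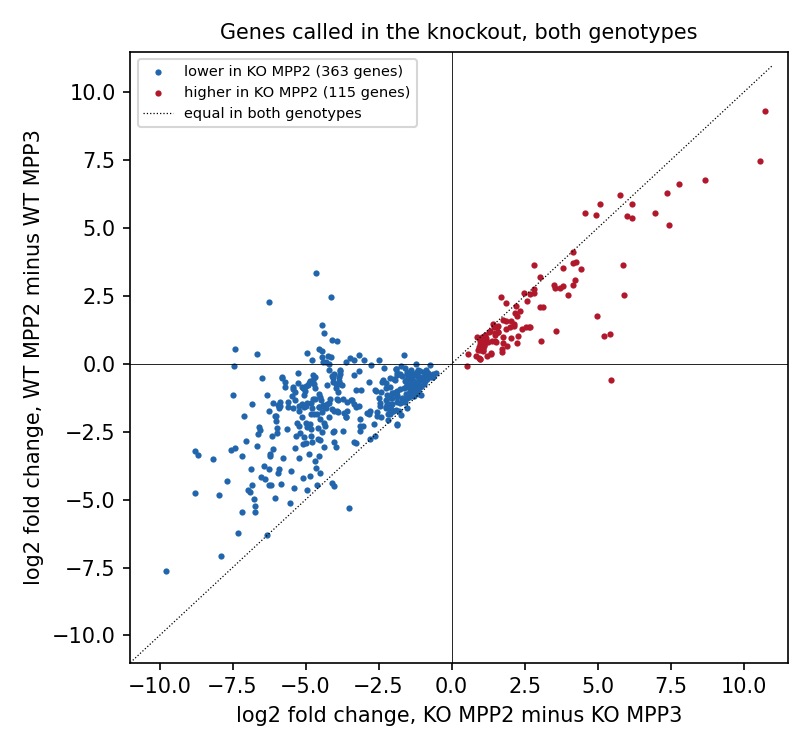
Log2 fold change of MPP2 minus MPP3 in the knockout (x axis) and in the wild type (y axis) for the 478 genes called in the knockout, 1 point per gene. Red points rose and blue points fell in KO MPP2, and the dotted line marks equal values; 113 red and 336 blue points have the same sign in the wild type.

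No gene passed a test of the difference between the genotypes' contrasts (0 of 17160, 0.0%; smallest limma adjusted p = 0.462). At an unadjusted p of 0.05, 748 genes passed (4.36%). With edgeR 0 passed and with DESeq2 39, and without KO MPP2 replicate 2 limma called 99, of which 96 were lower in the knockout contrast. The 5 genes with the smallest p for a more positive contrast in the knockout were Spast, Rhobtb3, Nsun4, Lrp6 and Fan1, and for a more negative one Tnrc18, Sra1, Slc22a17, Hlcs and Zfp882; none passed. Spast, a microtubule-severing ATPase, read 1051, 599 and 1409 normalized counts in KO MPP2 and 441, 309.7 and 605 in KO MPP3, while the WT MPP2 libraries read 364, 422 and 565, below WT MPP3 at 644, 675, 853 and 747. The difference between the contrasts was 1.85 ± 0.42 on the log2 scale. Mn1, among the 14 largest decreases, had a contrast of -3.11 in the wild type, and the difference was -4.31 ± 1.23.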

How the data were processed

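RNA was measured in 20 libraries, prepared with the Nextera XT kit, which does not mark strand. Reads were aligned with TopHat2 2.1.1 to GRCm38, counted with HTSeq 0.11.2 and scaled with DESeq, per the submitters' processing notes. The annotation release, strand setting and filters were not given in the sources used here. The deposited values are a normalized signal, counts divided by 1 size factor per library, and 100.0% gave whole reads within 1e-06. After 5 summary entries were left out, 17160 of 45706 genes passed edgeR's filterByExpr on those reads. limma 3.58.1 (trend, robust) was fitted on log2(value + 1) with 6 group means over 20 libraries and Benjamini-Hochberg adjustment; edgeR 4.0.16, DESeq2 1.42.0, voom weights, other pseudocounts, filters and scalings, and left-out libraries were alternatives. The limma and edgeR fits were also run on simulated counts with the same dispersion in every gene and group. That setting differs from these libraries, where KO MPP2 spread wider than KO MPP3, so it does not show how reliable the calls are. Fold changes are on the log2(value + 1) scale. Symbols were matched for 45143 genes. Named genes were Hopx, the 14 largest changes in each direction among called, non-overlapping genes with a mean of at least 100, a fixed set of marker genes, up to 4 members with the smallest p per list, and the 5 smallest p in each direction for the genotype difference; others named were chosen after their values were seen. The members and the 30 lists were chosen with earlier results of these data known; 508 of 560 list genes passed the filter, and some genes are not reported here.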

Additional observations from a re-analysis of the deposited data

Results flagged for a closer look

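Hlcs, which encodes holocarboxylase synthetase and is among the 10 genes named for the genotype difference, measured 179.7 normalized counts in WT MPP3 replicate 2, far from the other WT MPP3 libraries at 106, 109.6 and 100.1. In KO MPP3 it measured 219, 147 and 157, and in KO MPP2 45.7, 50.6 and 71.7. The gap to the nearest other WT MPP3 library was 0.88 of the range of that group. How often such a gap arises by chance was not tested.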

How the results depend on the processing

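The limits of the comparison are its 3 libraries per group, the wider spread of KO MPP2, and low counts, at which a single library can set a fold change. The count of 478 genes was within 1.5 times under the alternatives not given here. It was 885 with DESeq2 (293 higher, 592 lower), 197 with edgeR (73 higher, 124 lower) and 200 with edgeR on 18 libraries (64 and 136), an alternative added after seeing the data. A fit on the 6 libraries gave 140 (39 and 101) and one on the 9 knockout libraries 309 (214 lower). Without WT LT-HSC replicate 4, which had 0 Hopx reads, the count was 383, again an alternative added after seeing the data. With the male knockout MPP libraries (replicate 2 of both groups) left out, also added after seeing the data, 68 genes were higher and the genotype difference had 66. Leaving out 1 knockout library gave 107 to 1178 genes in all, 34 to 179 higher and 71 to 999 lower; the highest counts came without KO MPP2 replicate 2. The share of calls that were higher moved from 24.1% to 37.1% with edgeR. The median of all genes moved from -0.15 to -0.05 with edgeR and with DESeq2.

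The genotype difference had 39 genes with DESeq2 and 0 to 99 when 1 library was left out (1 without WT MPP3 replicate 2 or 3). The median of the Hox list turned positive, to 0.0685 with DESeq2 and 0.0675 with edgeR on 20 or 18 libraries. Kit ran from -0.23 to 0.23 and Hspa1b from -6.47 to 0.14 (log2 fold change) when 1 knockout library was left out, so both changed sign; neither passed. The causes of these changes were not tested.

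Neighbouring library numbers were tried as a replicate block: 1047 genes passed (263 higher, 784 lower), and 0 for the genotype difference. Deviations from the group means correlated by 0.0466, 0.141 and 0.0078 between same-numbered libraries. KO MPP2 replicates 1 and 2 correlated best with their own number and replicate 3 with KO MPP3 replicate 1 (0.0411). The labels do not say whether neighbouring numbers share a mouse, day or batch.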

Other observations

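Hspa1b and Hspa1a, which encode inducible HSP70 chaperones, split the libraries by the run of library numbers in their labels and not by population. In the 6 libraries numbered 115 to 120, Hspa1b ran from 9163 to 21466 normalized counts, and in the 3 numbered 52 to 54 from 3532 to 7105. In the 5 numbered 81 to 88 it ran from 0 to 498.9, and in the 6 numbered 101 to 106 from 52.3 to 153. Both replicate 2 libraries of the knockout MPP groups belong to the run from 115 to 120, at 9578 in KO MPP2 and 13089 in KO MPP3, and the other 4 lay between 0 and 313. Hspa1b was not called between KO MPP2 and KO MPP3 (log2 fold change -3.11 ± 2.97, limma adjusted p = 0.65). The part of these runs in the counts of called genes was not tested.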
